A study of Mus musculus with 15 samples.

Results

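The genes described here are those named as proteins of the cytosolic ribosome, taken as every gene whose symbol on the array's annotation starts with Rpl, Rplp or Rps and a digit, apart from the Rps6k kinases and symbols marked as pseudogenes. A probe set (a group of probes summarised to 1 value) counted only if the annotation gave it a single symbol, and of several probe sets for a gene the one brightest on average across the 15 arrays was taken. This gave 68 of the 22180 genes on the arrays. They comprised 32 proteins of the large subunit, 22 of the small subunit, the 3 stalk proteins Rplp0, Rplp1 and Rplp2, 10 genes named as copies or relatives of a ribosomal protein, and Rps19bp1, a nucleolar partner of Rps19 that is not itself a ribosomal protein. A further 14 genes of the same naming pattern, Rpl10, Rpl12, Rpl13a, Rpl23, Rpl24, Rpl31, Rpl35a, Rpl36, Rpl36a, Rpl36al, Rps15a, Rps2, Rps21 and Rps27rt, had only probe sets shared with other symbols and were not analysed here. No filter on low values was applied, so all 68 entered every test.

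The cytosolic ribosome is built from a large and a small subunit, each made of ribosomal RNA and one copy of most of its proteins, and it translates the messages of the nucleus. Many of its messages begin with a C followed by a run of C and T, the terminal oligopyrimidine (TOP) tract, through which the kinase complex mTORC1 and the binding protein LARP1 set how much of them is translated and kept. Hypoxia is known to lower mTORC1 activity and protein synthesis in many cells, and several ribosomal proteins, Rpl5 and Rpl11 among them, can bind the p53 regulator Mdm2 when ribosome assembly fails.

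All arrays came from melan-Ink4a-Arf-1 (labelled melan-a), an immortalized line of pigment cells from Cdkn2a tm1RDp/tm1RDp mice, so every group, controls included, carries that genotype, and the results describe 1 line. Medium in all groups held serum, a phorbol ester and cholera toxin. Normoxia means about 21% oxygen with 10% CO2, and the 4 other groups spent 24 h at 1% oxygen with 5% CO2, so the effects of oxygen and CO2 cannot be told apart. Those 4 groups were a control (called here the hypoxia control), a negative control, and Si1 and Si6, each transfected with a different small interfering RNA (siRNA) against Hif1a 24 h before hypoxia. Hif1a encodes the oxygen-regulated subunit of the transcription factor HIF-1. The labels do not say what the hypoxia control or the negative control received. Each group had 3 arrays, a, b and c, described as biological triplicates.

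Values are log2 intensities, on which a difference of 1 is a doubling. The median gene value per array lay between 6.84 and 6.94, and arrays of 1 group correlated at 0.9965 to 0.9979 across genes. Hif1a averaged 10.63 ± 0.06 (SD, n = 3) in the negative control, 8.65 ± 0.09 with Si1 and 8.93 ± 0.04 with Si6, falls of -1.98 ± 0.06 (adjusted p = 1.7e-12) and -1.70 ± 0.06 (adjusted p = 1.8e-11). The 10 melanocyte markers had mean levels between 8.46 and 13.06, the latter for Tyrp1. Among the markers of fibroblasts, keratinocytes, leukocytes and endothelium measured, the fibroblast gene Col1a1 was the brightest at 8.56. The summed melanocyte signal moved between groups, from 15.59 to 15.63 in normoxia and 15.32 to 15.37 in the hypoxia control to 14.87 to 14.95 in the negative control, 14.67 to 14.75 with Si1 and 15.14 to 15.21 with Si6 (log2 of the sum, lowest and highest array). The summed fibroblast signal ran from 9.71 to 9.86 in normoxia, 9.04 to 9.14 in the hypoxia control, 9.25 to 9.49 in the negative control, 8.80 to 8.92 with Si1 and 9.08 to 9.18 with Si6, and Col1a1 was lower in the hypoxia control than in normoxia (-1.0 ± 0.09, adjusted p = 7.1e-07). Of the leukocyte markers Lyz2 was lower there (-0.53 ± 0.12, adjusted p = 0.004). The sums were 7.83 to 8.25 for leukocytes, 8.02 to 8.23 for keratinocytes and 7.84 to 8.22 for endothelium over all arrays. The part of these markers in the results below was not tested. In a bulk sample, less of a message per cell and fewer cells that carry it cannot be told apart.

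The annotated starts of these genes were searched for the tract. RefSeq's promoter table (mouse build GRCm38.p6) held an entry for 53 of the 68 genes. A tract, defined as a C within 5 bases of an annotated start followed on the gene's strand by at least 5 C or T, was found in 20 of the 53 (37.7%), against 11.9% of all 27025 genes with an entry. With the C exactly at the start and at least 4 C or T after it, the shares were 20.8% and 3.01%. Annotated starts can lie some bases from the start a cell uses, so a gene without a match here may still carry a tract. The windows below hold the 10 bases before the annotated start and the first 15 from it, with the tract in capitals. For Rpl7a this annotated start lies inside the gene's RefSeq bounds and not at their edge. The first 5 genes rose in the hypoxia control over normoxia and have a tract, the next 3 have a tract and did not pass that test, and the last 2 rose and have no match.
Rpl14: ggccctctctCTTCTCgctgagcgc
Rpl15: agaaagccttCTTCCTTTCCTCTgg
Rpl35: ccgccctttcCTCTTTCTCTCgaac
Rpl7a: ctcttctttCTTTCTCCagcagccg
Rps23rg1: gcagagagtCTTTCTCTCaccccag
Rps10: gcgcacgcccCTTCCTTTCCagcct
Rps18: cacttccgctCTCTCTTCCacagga
Rps27: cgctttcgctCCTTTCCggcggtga
Rpl9: gggccctgacggattacaagaacgt
Rps13: caaacgtcggtgagtggcgtcactt

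On GRCm38.p6 these windows are chr9:120571507-120571531 on the plus strand for Rpl14, chr14:18270972-18270996 on the minus strand for Rpl15, chr2:39005117-39005141 on the minus strand for Rpl35, chr2:26910797-26910821 on the plus strand for Rpl7a and chr8:3567988-3568012 on the plus strand for Rps23rg1. The others are chr17:27635230-27635254 for Rps10, chr17:33955651-33955675 for Rps18, chr3:90213634-90213658 for Rps27, chr5:65391417-65391441 for Rpl9 and chr7:116334176-116334200 for Rps13, all on the minus strand. In the 300-base promoter entries, searched on both strands, the core CCGGAAG bound by ETS factors was present in 41.5% of the 53 genes and 9.93% of all genes. The YY1 letters AAGATGGC were in 5.66% and 3.19%, ACGTG, the core of the HIF-1 motif, in 28.3% and 21.8%, and CACGTG, the Myc E-box that contains ACGTG, in 7.55% and 8.09%. These matches are descriptions of the letters and do not show that a factor binds.

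The 68 genes were among the brighter ones on the arrays. Mean levels ran from 3.32 for Rpl32l to 13.01 for Rps6, whose protein is the textbook target of the S6 kinases, with a median of 8.81 against 6.90 for all genes. A mean of at least 9 was reached by 33 of the 68 (48.5%), against 21.1% of all genes, and 9 lay in the top 1% of genes. Brightness depends on each probe set as well as on the message, so a level is not read as an amount of one protein's message against another's. The median SD within a group was 0.08. Rps16 varied most, from 4.93 to 6.64 over the arrays, and the standard error of its differences (0.33) left little that could be detected for it.

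**Figure D1:**
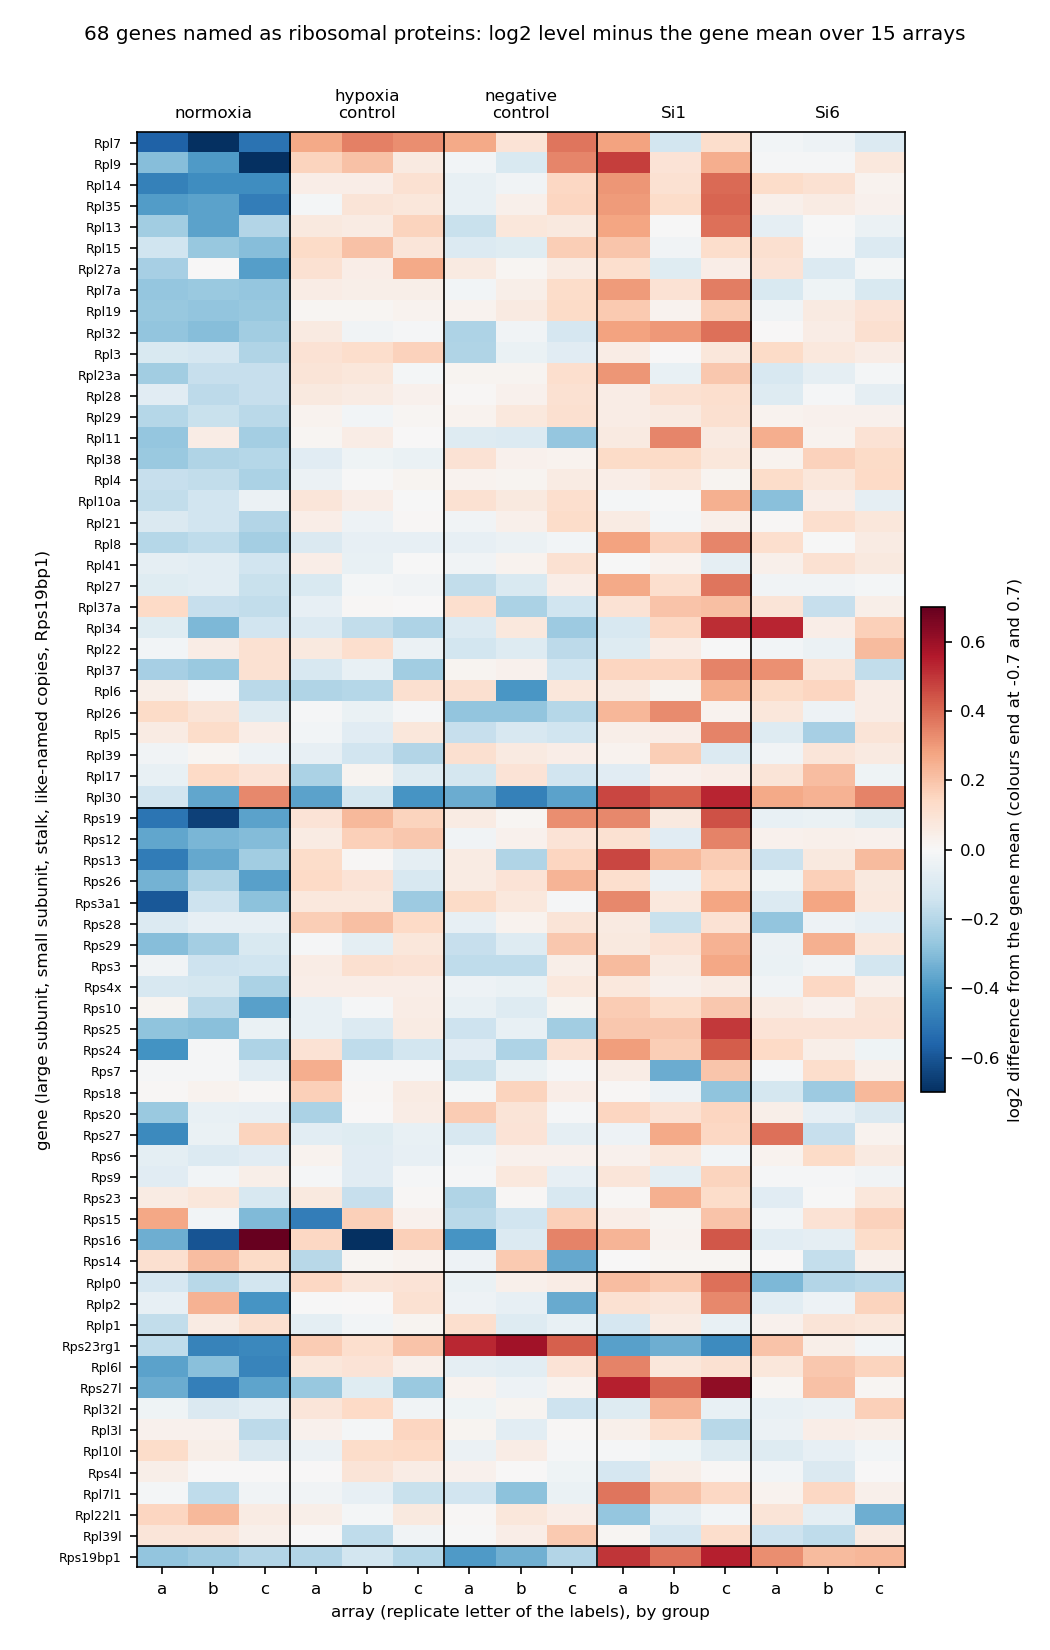
Each row is 1 of the 68 genes and each column 1 of the 15 arrays, and colour gives the log2 level minus that gene's mean over all arrays, with genes ordered within their role by the difference between hypoxia control and normoxia. The normoxia columns are blue for most subunit genes, Rpl30, Rps27l and Rps19bp1 are red with Si1, and Rps23rg1 is red in the negative control and blue with Si1.

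Set against the mean of each gene over all arrays, the median of the 68 stood at -0.13, -0.15 and -0.16 on the normoxia arrays and at 0.03, 0.01 and 0.02 on the hypoxia control arrays. It was -0.03, 0.01 and 0.05 in the negative control, 0.10, 0.07 and 0.15 with Si1, and 0.00, 0.04 and 0.04 with Si6. The normoxia arrays were the lowest of the 15 and did not overlap with any other group. Over all genes the same median stayed between -0.02 and 0.01 on every array.

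The first comparison asks which of these genes differ between hypoxia and normoxia without transfection against Hif1a. In the hypoxia control, 25 of the 68 (36.8%) were higher than in normoxia and 0 were lower, by limma at an adjusted p under 0.05. Over all 22180 genes 9.87% were higher and 11.2% lower. The median log2 fold change of the 68 was 0.15, with 52 of 68 above 0, against -0.002 for all genes. On all 25 the arrays of the hypoxia control lay above those of normoxia without overlap. These genes had already passed the test on the same arrays, so this adds no further support. Some genes that did not pass, Rpl10a and Rpl21 among them, did not overlap either, and the share over all genes was not counted. The rises of the 25 were small, from 1.12-fold for Rpl38 to 1.88-fold for Rpl7. Leaving out each array of the compared groups in turn left between 21 and 23 higher, and left at most 1 lower, that one when normoxia array b was out.

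**Figure D2:**
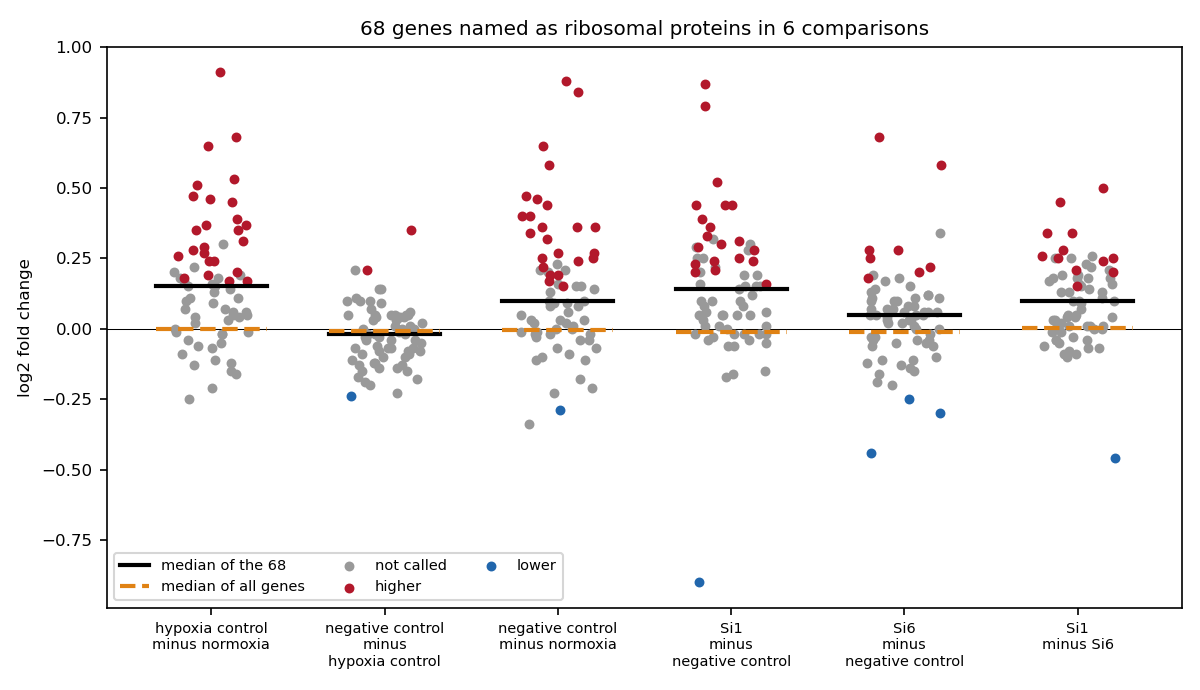
Points are the log2 fold changes of the 68 genes in each of 6 comparisons, coloured by the limma call (adjusted p under 0.05), with the median of the 68 as a black bar and the median of all genes as a dashed bar. Against normoxia, 25 and 24 genes are higher and at most 1 is lower, while the comparison of the hypoxic controls holds 3 called genes.

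Among large subunit proteins, 16 of 32 were higher in the hypoxia control. Rpl7 showed the largest rise of the 68. Its log2 values were 8.29, 8.14 and 8.34 in normoxia and 9.12, 9.21 and 9.18 in the hypoxia control, with 9.12, 8.95 and 9.23 in the negative control, 9.14, 8.73 and 8.98 with Si1, and 8.84, 8.82 and 8.76 with Si6. Normoxia thus stood below all 12 hypoxic arrays, and the difference of hypoxia control over normoxia was 0.91 ± 0.09 (SE, adjusted p = 3.3e-06). Rpl9 read 8.92, 8.82 and 8.38 in normoxia and 9.37, 9.42 and 9.28 in the hypoxia control, a rise of 0.65 ± 0.14 (adjusted p = 0.002) in which the normoxia arrays were the more scattered. Rpl14, whose start is printed above, read 9.80, 9.84 and 9.84 in normoxia and 10.32, 10.32 and 10.38 in the hypoxia control, a rise of 0.51 ± 0.07 (adjusted p = 8.0e-05). It held at 10.22, 10.25 and 10.42 in the negative control, 10.58, 10.38 and 10.67 with Si1 and 10.40, 10.38 and 10.30 with Si6, so the normoxia arrays were again the lowest. The other 13 rose by 0.17 to 0.46, with Rpl35 at the top (0.46 ± 0.07) and Rpl38 and Rpl4 at the bottom. Rpl30 (-0.25 ± 0.13, adjusted p = 0.214) had the lowest fold change, and its normoxia arrays, 6.27, 6.04 and 6.74, spread widely.

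In the small subunit 6 of 22 (27.3%) were higher, against 9.87% of all genes, namely Rps19, Rps12, Rps13, Rps26, Rps28 and Rps4x. Rps19, the protein most often mutated in Diamond-Blackfan anaemia, read 9.37, 9.23 and 9.51 in normoxia and 9.98, 10.11 and 10.04 in the hypoxia control, a rise of 0.68 ± 0.10 (adjusted p = 1.3e-04). In the negative control it read 9.94, 9.90 and 10.21, with Si1 10.22, 9.95 and 10.33, and with Si6 9.83, 9.84 and 9.80. Normoxia was again the only group below the rest. Rps12 rose by 0.47 ± 0.08, Rps13 by 0.39 ± 0.11 and Rps26 by 0.35 ± 0.08. Rps6 itself differed by 0.04 ± 0.05 (adjusted p = 0.641).

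The stalk recruits elongation factors to the large subunit. Rplp0, the protein that anchors it and a gene often used as a reference in expression work, read 10.20, 10.12 and 10.19 in normoxia and 10.46, 10.40 and 10.41 in the hypoxia control, a rise of 0.26 ± 0.06 (adjusted p = 0.006). Rplp1 (-0.02 ± 0.08) and Rplp2 (0.11 ± 0.13) did not pass the test. Of the 10 copies, Rps23rg1 and Rpl6l were higher. Rps23rg1 arose by retroposition of Rps23, and Rpl6l is named as a copy of Rpl6. Rpl6l read 10.17, 10.25 and 10.08 in normoxia and 10.62, 10.64 and 10.58 in the hypoxia control (0.45 ± 0.07, adjusted p = 3.4e-04). The probe sets of Rpl6 (-0.05 ± 0.12) and Rps23 (-0.04 ± 0.08) did not pass. Ribosomal protein messages have many near-identical copies in the mouse genome, and which of them each probe set reads was not tested, so the gene behind a copy's signal is uncertain.

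**Figure D3:**
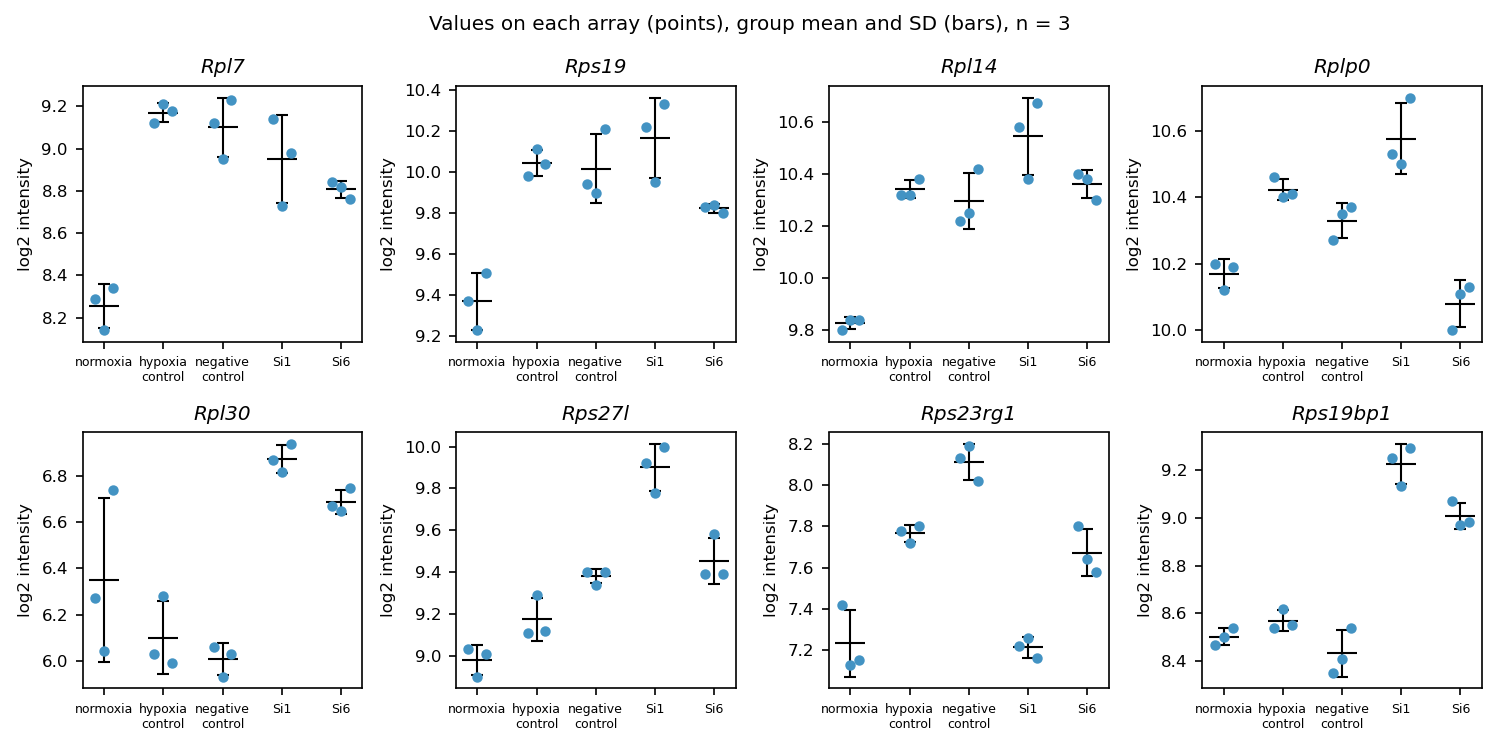
Points are the log2 intensities of 8 genes on each array, and bars give the group mean and SD (n = 3), with a separate vertical scale for each gene. Rpl7, Rps19 and Rpl14 are lowest in normoxia, Rplp0 is highest with Si1 and lowest with Si6, and Rps23rg1 is highest in the negative control.

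Most of the rises were among the brighter genes. Of the 33 genes with a mean of at least 9, 21 were higher in the hypoxia control (63.6%, median 0.24), and of the 35 below it 4 were (11.4%, median 0.04), these 4 being Rpl7, Rpl13, Rpl27a and Rps23rg1. Among the 4638 other genes with a mean of at least 9, 20.9% were higher and 23% lower, with a median of -0.015. The level of 9 was chosen after the values were seen, so these shares are a description. The brightest genes of all moved little. Rps6, Rpl41 and Rpl21, with means of 13.01, 12.79 and 12.68, differed by 0.04, 0.09 and 0.15 and did not pass.

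**Figure D4:**
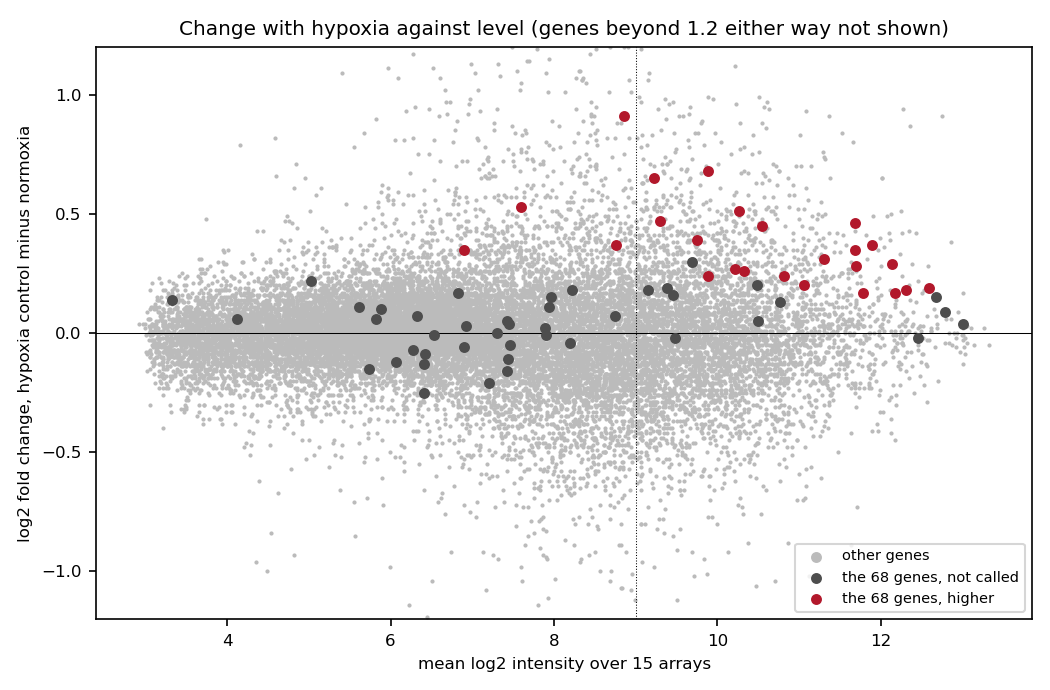
Each point is a gene, with its mean log2 intensity over 15 arrays on the horizontal axis and its log2 fold change of hypoxia control over normoxia on the vertical axis, and the 68 genes, like-named copies and Rps19bp1 included, are drawn larger. To the right of the dotted line at 9, 21 of 33 of them are higher, and to its left 4 of 35.

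Other probe sets of the same genes did not always repeat the rise. Of the 68 genes, 24 had more than 1 probe set, and for 23 of these the values differed, giving 33 further probe sets whose mean level lay 0.44 to 7.84 from the brightest to the dimmest of a gene (median gap 3.95). In a fit over every distinct probe set, chosen after the values were seen, 8 of the 33 were higher in the hypoxia control and 0 were lower. The share over all probe sets was not counted. With 1 probe set per gene it was 9.87% higher and 11.2% lower. For Rpl7, Rps19 and Rpl9 the second probe set, at mean levels of 5.81, 6.58 and 5.40, differed by -0.08, 0.11 and 0.01 and did not pass. Rplp0's second set (level 7.48) gave -0.08 ± 0.10, and a second set for Rpl3, nearly as bright as the first at 9.55, gave -0.11 ± 0.07 where the first gave 0.27 ± 0.05. Averaged over their probe sets, Rplp0 (0.09) and Rpl3 (0.06) no longer passed. All 3 sets of Rps12 were higher (0.37 to 0.52), as were the brightest pair for Rpl7a (0.31 and 0.33) and both sets of Rpl19 (0.29 each). Rps24 went the other way, since its brightest set gave 0.15 ± 0.11 while the others, at levels of 7.90 and 7.27, rose by 0.50 and 0.55. Of the remaining genes with several sets, the other sets of Rpl13, Rpl29, Rpl4, Rps26, Rps28, Rps3a1, Rpl27, Rpl41, Rplp1, Rps9, Rps18 and Rps20 did not pass, and 1 other set each of Rpl21 (0.19) and Rpl35 (0.40) did.

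**Figure D5:**
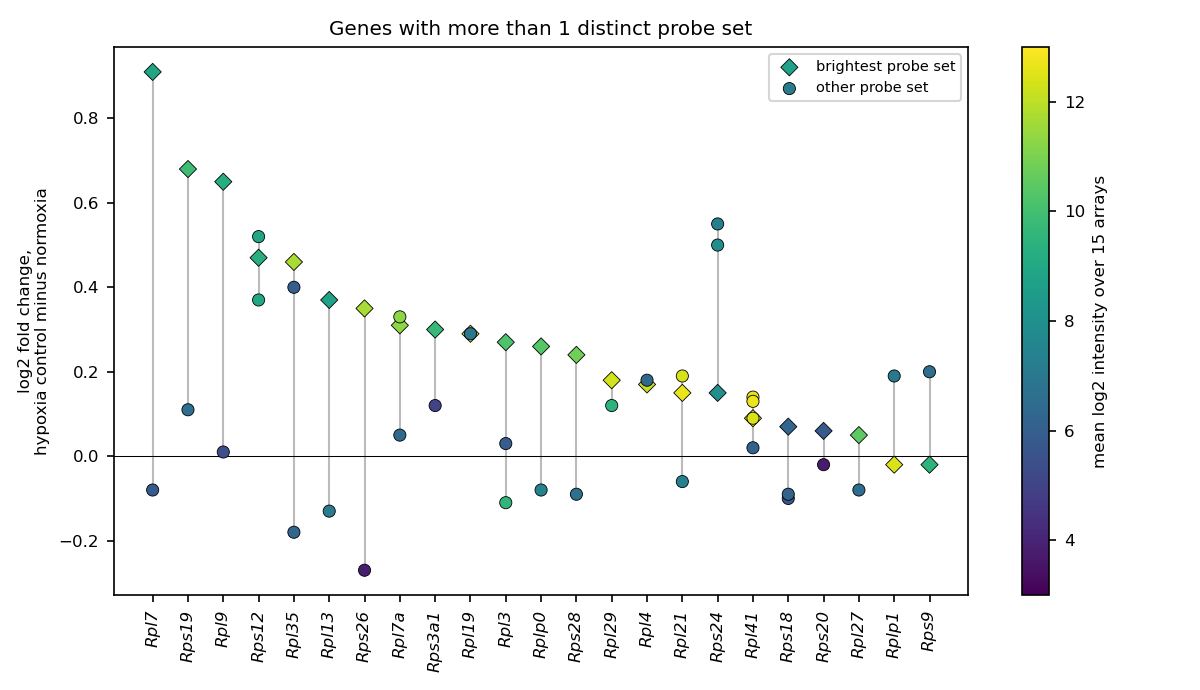
For the 23 genes with more than 1 distinct probe set, diamonds mark the brightest set and circles the others, placed by log2 fold change of hypoxia control over normoxia and coloured by mean log2 intensity. Rpl7, Rps19 and Rpl9 join a bright set that rose to a dim one near 0, and Rps12 has 3 sets between 0.37 and 0.52.

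A tract at the start was present in 9 and absent in 10 of the genes with an entry that rose in the hypoxia control, and present in 11 and absent in 23 of those that did not pass. These counts carry no test.

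The negative control was compared with the hypoxia control because both groups were hypoxic and neither was transfected against Hif1a. Only 2 of the 68 were higher in the negative control and 1 was lower, fewer than the 7.8% higher and 7.51% lower over all genes. Rps23rg1 read 7.78, 7.72 and 7.80 in the hypoxia control and 8.13, 8.19 and 8.02 in the negative control (0.35 ± 0.08, adjusted p = 0.006). Rpl39 was higher by 0.21 ± 0.07 (adjusted p = 0.046), a call that was lost under 5 of the other settings named in the closing section and when any of 5 arrays was left out. Rpl3, which forms part of the peptidyl transferase region, fell from 10.31, 10.33 and 10.37 to 10.00, 10.16 and 10.13 (-0.24 ± 0.05, adjusted p = 0.006), and with the mean of its probe sets this was -0.12 and did not pass.

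The negative control was also set against normoxia, with the same normoxia arrays as above. Here 24 of the 68 (35.3%) were higher and 1 was lower, against 14.6% and 15.7% of all genes, and the median was 0.10. Of the 68 genes, 33 had a mean of at least 9, and 20 of these were higher (60.6%), against 28.2% of other genes that bright. Rps23rg1 rose by 0.88 ± 0.08 (adjusted p = 3.4e-07), Rpl7 by 0.84 ± 0.09, Rps19 by 0.65 ± 0.10 and Rpl9 by 0.58 ± 0.14. The gene that fell was Rpl26, a large subunit protein near the exit tunnel, which read 7.03, 6.99 and 6.81 in normoxia and 6.62, 6.62 and 6.70 in the negative control (-0.29 ± 0.08, adjusted p = 0.008). Values beside those of the hypoxia control were 0.03 against 0.27 for Rpl3, 0.16 against 0.26 for Rplp0, 0.15 against 0.28 for Rpl32 and 0.23 against 0.37 for Rpl15. None of the 4 passed here, and of these Rpl3 alone differed between the control groups by the test above. Rps27l rose by 0.40 ± 0.07 (adjusted p = 4.7e-04), where the hypoxia control gave 0.19 ± 0.07 (adjusted p = 0.082).

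The siRNA comparisons ask which levels differ when Hif1a is reduced under hypoxia, and both use the same negative control arrays. Since the labels do not say whether the negative control was transfected, Hif1a reduction and transfection itself cannot be told apart. With Si1, 20 of the 68 (29.4%) were higher and 1 was lower, against 20.2% and 14.8% of all genes. The median was 0.14, against -0.012 for all genes. Among genes with a mean of at least 9, 11 of 33 were higher (33.3%), below the 38.4% of other genes that bright. Of the 35 dimmer ones 9 were higher (25.7%), above the 15.3% of other genes under 9. Of the 14786 other genes with levels from 6.01 to 12.15, the span of most of the 68, 28.4% were higher, close to the share of the 68. The count depended on the scaling. When arrays were centred on other genes of like level, 12 were higher and 2 lower, with a median of 0.07. Without Si1 array c, 13 were higher. In the fit over every distinct probe set, 3 of the 33 further sets were higher with Si1 and 2 with Si6. With each siRNA 0 of them were lower. The share over all probe sets of that fit was not counted. With 1 probe set per gene, 20.2% of all genes were higher with Si1 and 17.0% with Si6. These few sets are therefore not read as repeating the rises.

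Rpl30, of the large subunit, rose most with Si1. It read 6.06, 5.93 and 6.03 in the negative control, 6.87, 6.82 and 6.94 with Si1 and 6.67, 6.65 and 6.75 with Si6. The siRNA arrays lay above those of both hypoxic controls (6.03, 6.28 and 5.99 in the hypoxia control), while normoxia reached 6.74 on array c. The rise was 0.87 ± 0.13 with Si1 (adjusted p = 4.8e-05) and 0.68 ± 0.13 with Si6 (adjusted p = 6.4e-04). Rps19bp1 read 8.35, 8.41 and 8.54 in the negative control, 9.25, 9.13 and 9.29 with Si1 and 9.07, 8.97 and 8.98 with Si6. Both siRNA groups stood above the other 9 arrays, whose highest value was 8.62, and the rises were 0.79 ± 0.06 (adjusted p = 4.7e-08) and 0.58 ± 0.06 (adjusted p = 2.6e-06). Among ribosomal proteins proper, Rpl32 (0.44 ± 0.06), Rpl26 (0.44 ± 0.08) and Rps25 (0.44 ± 0.09) followed. With Si1, 11 of 32 large (34.4%) and 5 of 22 small subunit genes (22.7%) were higher. Of all genes 20.2% were, and of other genes of like level 28.4%, so the small subunit share is near the background. Rpl5 and Rpl11, the partners of 5S ribosomal RNA, rose by 0.28 ± 0.09 and 0.31 ± 0.10. For Rpl14, Rpl35, Rpl7a and Rps23, called at 0.20 to 0.24, the Si1 and negative control arrays overlapped.

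Rps27l, a relative of Rps27 known as a p53 target, separated the siRNAs. It read 9.40, 9.34 and 9.40 in the negative control, 9.92, 9.78 and 10.00 with Si1 and 9.39, 9.58 and 9.39 with Si6. The rise with Si1 was 0.52 ± 0.07 (adjusted p = 3.2e-05), the difference with Si6 was 0.07 ± 0.07 (adjusted p = 0.541), and Si1 over Si6 was 0.45 ± 0.07 (adjusted p = 2.1e-04).

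With Si6, 8 of the 68 (11.8%) were higher and 3 were lower, against 17.0% and 11.9% of all genes, and the median was 0.05. Of the 33 brighter genes 2 were higher, against 37.3% of other genes of that brightness. Of the 35 dimmer genes 6 were higher (17.1%), against 11.6% of other genes under 9. The 8 higher genes were Rpl30, Rps19bp1, Rpl26, Rpl11, Rps25, Rpl7l1, Rpl3 and Rpl32, the last by 0.18 ± 0.06 (adjusted p = 0.025). Those lower were Rps23rg1, Rpl7 (-0.30 ± 0.09, adjusted p = 0.023) and Rplp0. The direction of the group was not settled. Centred on other genes of like level, 2 were higher and 7 lower, and the median was -0.01. The count of higher genes was 3 without negative control array a, 5 without negative control array c or Si6 array a, and 4 without Si6 array c.

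Rps23rg1 was the single gene of the 68 that fell with both siRNAs. It read 7.42, 7.13 and 7.15 in normoxia, 7.22, 7.26 and 7.16 with Si1, and 7.80, 7.64 and 7.58 with Si6, against 8.13, 8.19 and 8.02 in the negative control. The Si1 arrays thus lay within the range of normoxia. The falls were -0.90 ± 0.08 with Si1 (adjusted p = 1.9e-07) and -0.44 ± 0.08 with Si6 (adjusted p = 4.1e-04), and they differed by -0.46 ± 0.08 (adjusted p = 3.0e-04).

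The siRNAs were compared directly as Si1 over Si6, without the shared control. Si1 was higher for 12 of the 68 (17.6%) and lower for 1, against 14.5% and 13.4% of all genes, with a median of 0.10. The largest difference was at Rplp0. It read 10.53, 10.50 and 10.70 with Si1 and 10.00, 10.11 and 10.13 with Si6, on either side of the negative control at 10.27, 10.35 and 10.37. It was higher by 0.25 ± 0.06 with Si1 (adjusted p = 0.004), lower by 0.25 with Si6 (-0.25 ± 0.06, adjusted p = 0.005), and 0.50 ± 0.06 apart (adjusted p = 1.3e-05). With the mean of its probe sets, 0.11 and -0.11 remained against the negative control and neither passed. Rps19, Rpl7a, Rpl27, Rpl32, Rps3 and Rpl35 were also higher with Si1, by 0.24 to 0.34. Hif1a itself was lower with Si1 than with Si6 (-0.28 ± 0.06, adjusted p = 0.001). The count was 7 with median centring, 6 without Si1 array c and 7 without Si6 array c.

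Genes that rose in the hypoxia control and genes that changed with the siRNAs were set side by side, since these comparisons share no arrays. Of the 25 that rose, 6 were higher with Si1 (Rpl14, Rpl3, Rpl32, Rpl35, Rpl7a and Rplp0, 6 of its 20), Rps23rg1 was lower, and 18 did not pass. With Si6, Rpl3 and Rpl32 were higher (2 of its 8), Rpl7, Rplp0 and Rps23rg1 were lower, and 20 did not pass. For Rpl7 the Si6 arrays still lay above all normoxia arrays. The remaining 14 genes that rose with Si1, Rpl30, Rps19bp1 and Rps27l among them, had not passed in the hypoxia control. Over all genes 20.2% were higher with Si1 and 17.0% with Si6, so 6 of 25 is near the background for Si1, and nothing particular to the 68 is read from these counts.

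The relatives of ribosomal proteins are given beside the genes they are named after. Rpl7l1, a nucleolar relative of Rpl7 that acts in large subunit assembly, read 7.76, 7.61 and 7.85 in the negative control, 8.27, 8.10 and 8.04 with Si1 and 7.92, 8.04 and 7.93 with Si6. It rose by 0.39 ± 0.08 (adjusted p = 6.0e-04) and 0.22 ± 0.08 (adjusted p = 0.037), and did not pass in the hypoxia control (-0.01 ± 0.08), where Rpl7 rose. Rps27 did not pass in any comparison (differences of 0.04 to 0.15, SE 0.14), unlike Rps27l. Rps4x rose by 0.20 ± 0.05 in the hypoxia control and Rps4l, at a mean of 6.92, differed by 0.03 ± 0.05. Rpl3l, known from muscle, and Rpl39l and Rpl10l, known from testis, did not pass in any of the 6 comparisons and had mean levels of 5.88, 6.41 and 4.12. Nor did Rpl22, its relative Rpl22l1 or Rpl32l. Differences within these pairs were not tested, so a gene that passed beside one that did not is no sign that they differ.

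Ribosome genes outside the naming pattern also rose in the hypoxia control. Rpsa and Fau, which encode small subunit proteins, rose by 0.50 ± 0.08 and 0.42 ± 0.07 in the hypoxia control, and with the siRNAs Rpsa rose by 0.40 ± 0.08 with Si1 and Fau fell with Si6 (-0.21 ± 0.07). Of 14 other TOP messages, which encode translation factors and the like, 6 were higher in the hypoxia control and 0 lower (median 0.12). Those higher included Eef1b2 (0.38 ± 0.06), Npm1 (0.35 ± 0.08) and Eef1d (0.33 ± 0.07). Over all genes 9.87% were higher and 11.2% lower in that comparison. Among genes with a mean of at least 9, the ribosomal genes analysed here left out, 20.9% were higher and 23% lower. Most of the 14 were that bright. Eef2 (adjusted p = 0.993) and Eef1a1 (adjusted p = 0.967) did not pass. With Si1, 7 of the 14 were higher and 2 lower, where 20.2% and 14.8% of all genes were, and with Si6 2 were higher and 0 lower, where 17.0% and 11.9% of all genes were, a count of higher genes near the background.

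Genes that regulate TOP messages and mTORC1 changed in both directions in the hypoxia control, where 9.87% of all genes were higher and 11.2% lower. Of 11 measured, 2 were higher in the hypoxia control, the mTORC1 inhibitor Ddit4 (1.84 ± 0.09, adjusted p = 7.6e-10) and the translation repressor Eif4ebp1 (0.61 ± 0.07), and 4 were lower, Mtor (-0.32 ± 0.05), its partner Rptor (-0.16 ± 0.05), Rps6kb2 (-0.24 ± 0.06) and Eif4ebp2 (-0.20 ± 0.05). With Si1 8 were higher and 1 lower (all genes 20.2% and 14.8%), and with Si6 6 were higher and 2 lower (all genes 17.0% and 11.9%). Larp1, which binds the tract, rose by 0.78 ± 0.05 and 0.69 ± 0.05, and Myc, an activator of ribosome production, rose by 0.31 ± 0.06 with Si1 and fell with Si6 (-0.60 ± 0.06).

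Genes that assemble ribosomes fell more often than they rose in the hypoxia control, and most rose with each siRNA. Of 15 assembly genes, 1 was higher in the hypoxia control, Ncl (0.44 ± 0.06), and 6 were lower, with a median of -0.15. Over all genes 9.87% were higher and 11.2% lower in the hypoxia control. The largest fall was at Bop1, a large subunit processing factor (-0.54 ± 0.06, adjusted p = 3.8e-06), and Rrn3, an initiation factor of RNA polymerase I, fell by 0.41 ± 0.07 (-0.41 on the log2 scale). With Si1, 13 of the 15 were higher and 1 was lower, Nob1 (-0.36 ± 0.06), with a median of 0.89, and with Si6 11 were higher and 0 lower, with a median of 0.30. Over all genes 20.2% were higher with Si1 and 17.0% with Si6, with medians of -0.012 and -0.013. Dkc1 and Rrp9 each rose by 1.13 with Si1, against 0.31 and 0.42 with Si6. Of 5 dedicated chaperones of ribosomal proteins, 3 were lower in the hypoxia control (all genes 11.2%). All 5 were higher with Si1 and 4 with Si6 (all genes 20.2% and 17.0%). Tsr2, which carries Rps26, fell by 0.40 in the hypoxia control (-0.40 ± 0.07) and rose by 0.65 ± 0.07 with Si1 and 0.44 ± 0.07 with Si6, while Rps26 itself rose in the hypoxia control and did not pass with either siRNA.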

How the data were processed

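The authors deposited 1 table of log2 intensities of 41345 probe sets on 15 Affymetrix arrays. The submitters' processing notes name RMA and Partek with no version or order, and the genome build of the probes is not given in the sources used here. RMA sets the arrays to a common distribution, so a change shared by all genes cannot be seen. Probe sets with 1 symbol were kept (23521) and the brightest stood for a gene, leaving 22180 genes. A mean for each of the 5 groups was fitted with limma 3.58.1 (R 4.3.3) to the whole set of arrays, followed by eBayes. Tests were two-sided, p-values were adjusted by Benjamini-Hochberg across the 22180 genes, and 0.05 was the threshold. The script was tested on simulated data first. A gene is called higher or lower, or said to rise or fall, when it passed. The value after ± is a standard error unless SD is written, and 3 arrays a group limit the precision. Named genes are the 4 largest rises and falls of each comparison, the stalk genes, like-named pairs, genes with several probe sets and the listed pathway genes, and others are named to complete a count. The members and gene lists were chosen with earlier results of these data known. Rack1, Hnrnpa1, Rps6kb1, Fbl, Pdcd2, Krt5 and Rps27a were not analysed here. Alternatives were another quantile normalization, centring on the median or on genes of like level, leaving out the lowest 25% of genes, the mean over probe sets, other limma settings, array weights, only the compared groups, a replicate block and leaving out each array.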

Additional observations from a re-analysis of the deposited data

Results flagged for a closer look

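Differences between the siRNAs, tested as Si1 over Si6 by limma (adjusted p under 0.05), were seen for 13 of the 68 genes. Si1 was higher for 12 (17.6%) and lower for 1, against 14.5% and 13.4% of all genes. Nothing particular to the 68 is read from this count. Log2 differences were -0.46 for Rps23rg1, 0.15 for Rpl28, 0.20 for Rpl8, 0.21 for Rps19bp1, 0.24 for Rpl35, 0.25 for Rps3, 0.25 for Rpl13, 0.26 for Rpl32, 0.28 for Rpl27, 0.34 for Rpl7a, 0.34 for Rps19, 0.45 for Rps27l and 0.50 for Rplp0. The arrays of Rpl13 overlapped between Si1 and Si6, and those of the other 12 did not. All 13 had already passed the test on these arrays, so the lack of overlap adds no further support. Its share over all genes was not counted. Between the hypoxic control groups, negative control over hypoxia control, differences were -0.24 for Rpl3, 0.21 for Rpl39 and 0.35 for Rps23rg1. Such calls were fewer than the 7.8% higher and 7.51% lower of all genes. Groups of 3 arrays were not tested for outlying arrays.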

How the results depend on the processing

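The count of genes higher in the hypoxia control than in normoxia stayed within 1.5 times of 25 under every alternative run. The median of that comparison was 0.10 with the mean of probe sets, and 0 to 1 genes were lower when single arrays were left out. Of the largest rises and falls, the stalk genes, the like-named pairs and Rps19bp1, those that passed kept their direction under every alternative. They did not always still pass. Counting each gene, comparison and alternative as 1 case, the call was lost in 37 cases without single arrays and 32 under other alternatives. It was gained in 4 and 18 cases. Genes outside these sets were not followed in this way, and the balance of calls with Si6 did turn, as given below. For negative control over hypoxia control, higher genes numbered 1 with median centring, like-level centring or only the compared groups, and 1 to 2 without single arrays. Lower genes there numbered 2 with quantile normalization, median centring or only the compared groups, 3 without the lowest 25% of genes, with eBayes trend and robust settings or with array weights, 0 with the mean of probe sets, and 1 to 2 without single arrays. The median there was -0.05 with median centring and -0.07 to -0.01 without single arrays. For negative control over normoxia, lower genes numbered 3 with quantile normalization, 4 with median centring, 2 without the lowest 25% of genes, with trend and robust settings or with only the compared groups, and 1 to 2 without single arrays. The median there was 0.05 with median centring and 0.10 to 0.13 without single arrays. For Si1 the median was 0.11 with quantile normalization and 0.07 with like-level centring, where 12 were higher and 2 lower, and without single arrays 13 to 21 were higher with medians of 0.10 to 0.18. For Si6, higher genes numbered 2 with like-level centring, 5 with only the compared groups and 3 to 6 without single arrays. Lower genes numbered 5 with quantile normalization, 7 with like-level centring, 1 with the mean of probe sets and 6 with trend and robust settings, and the median was 0.10 with median centring and -0.01 with like-level centring. For Si1 over Si6, 7 were higher with median centring (median 0.06), and 6 to 14 without single arrays (medians 0.07 to 0.14). The cause of these shifts was not tested. With the replicate letter as a block, 25, 2, 22, 18, 8 and 12 genes were higher and 0, 1, 1, 1, 3 and 1 lower in the 6 comparisons, in the order of the report. Same-letter arrays of different groups had a median correlation of -0.002 in their deviations, and 3 of 30 pairs lay above 0.1. For arrays of different letters the median was 0.002, and 11 of 60 pairs lay above 0.1. With 3 arrays a group these values cannot show whether arrays of 1 letter were prepared together. The share of genes with a tract depended on its definition, at 20.8% against 3.01% of all genes in the strict form. The median standard error of a difference was 0.08, which limits what can be seen for changes as small as the medians above.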
